A study of Mus musculus with 4 samples.

Results

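Protamines, transition proteins and the proteins of the sperm tail are made after meiosis, and the genes described here mark that late, haploid part of spermatogenesis. They are the protamine genes Prm1 and Prm2, the transition protein genes Tnp1 and Tnp2, the outer dense fibre gene Odf1, the fibrous sheath genes Akap3 and Akap4, and the testis-specific serine kinase genes Tssk1, Tssk2 and Tssk6. They were taken by symbol from a table of 31600 features, in which 9 of the 10 genes had values; Tnp1 was not analysed here. RNA depleted of ribosomal RNA was sequenced from spermatogonial stem cells of the mouse, which maintain the male germline, in 2 libraries of a differentiation group and 2 libraries of a control group. The labels give the controls as WT under genotype and the other group only as differentiation. They do not say how or for how long the cells were differentiated, nor their age or strain, nor whether replicates were separate cultures or animals, so p-values measure the spread between these libraries, which may be technical.

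In round spermatids, the haploid cells that leave meiosis, transcription factors such as CREM switch on the genes for sperm chromatin and the tail. Their mRNAs are stored in ribonucleoprotein particles and translated later, once transcription has shut down in the elongating spermatid. Histones then give way to transition proteins and these to protamines, small arginine-rich proteins that pack sperm DNA. In the same cells outer dense fibres and the fibrous sheath are laid down along the axoneme of the tail.

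The promoters of several of these genes hold sequences that resemble the cAMP response element bound by CREM, the letters TGACGTCA, and they are shown because the Crem mRNA itself was higher in differentiation. RefSeq promoter windows of GRCm38.p6, which run from 250 bases before to 50 bases after the start of a gene, were found for 9 of the 10 genes, with 10 windows in all because Akap4 has 2. The letters TGANNTCA, which read the same on both strands and were chosen with these windows in view, occurred in 7 of the 10 windows, against 14.1% of all 32851 windows of that length. These 7 windows belong to 6 of the 9 genes. The exact letters TGACGTCA occurred in 0 of the 10 windows and in 1.79% of all windows. Each stretch below is 30 bases, 5′ to 3′ on the strand of the gene, with the TGANNTCA letters in capitals.
Prm1: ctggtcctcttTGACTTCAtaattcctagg
Tssk1: ttactcctttgTGACTTCAcccactgaagt
Tssk2: gcccagctttaTGACTTCAttcgctggtca
Tnp1: gcaaaggttagTGATGTCAcaagagagctg
Akap3: tatagaaacagTGATGTCActagctgcaat
Akap4: tatagaaacagTGATGTCAtgaattttaag

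Prm1, Tssk1 and Tssk2 shared the form TGACTTCA, which occurred on either strand in 1.52% of all windows, and in them its first base lay 64, 48 and 58 bases before the RefSeq start. Tnp1, Akap3 and Akap4 shared TGATGTCA, found on either strand in 3.62% of all windows, 94, 22 and 35 bases before the RefSeq start. Both forms were picked from these same windows, so their shares of all windows are no test. The stretches lie at chr16:10796869-10796898 on the minus strand (Prm1), chr16:17894144-17894173 on the plus strand (Tssk1), chr16:17898568-17898597 on the plus strand (Tssk2), chr1:73015975-73016004 on the minus strand (Tnp1), chr6:126853065-126853094 on the plus strand (Akap3) and chrX:7067469-7067498 on the plus strand (Akap4). The Akap3 and Akap4 windows, on different chromosomes, have 20 bases in common without a break, ctatagaaacagTGATGTCA, and no other window among the 32851 held that run. The windows of Prm2, Tnp2 and Tssk6 did not hold TGANNTCA. The second Akap4 window held TGATATCA, of neither form and not shown, 234 bases before its start. Akap3 and Tssk1 each held TGANNTCA at 2 places, of which the one farther from the start is shown. RefSeq starts Prm1 at 10796823 and Prm2 at 10792105 of chromosome 16, whereas the GENCODE M21 models used for positions and lengths elsewhere begin 9016 and 4029 bases farther upstream, with a distant exon. By those models the Prm1 stretch lies inside the gene and partly in an exon. These are matches of letters in a window and not measured binding sites. The Crem value is that of the whole gene and does not separate its transcripts. The part of Crem in the levels of these genes was not tested.

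All 9 genes were low in both groups. In differentiation their mean levels ran from 0.109 FPKM (fragment counts divided by exonic length and by sequencing depth) for Akap4 to 2.24 FPKM for Tssk1, and in control from 0.143 FPKM for Akap3 to 2.56 FPKM for Tssk2. The sum over the 9 genes was 10.1 and 9.89 FPKM in the differentiation libraries and 8.94 and 7.44 FPKM in the control libraries. Ldhc, the lactate dehydrogenase of spermatocytes, alone stood at 356 ± 4.63 FPKM in differentiation and 2.22 ± 0.331 FPKM in control (SD, n = 2 each). Even the highest of the 9 in differentiation, Tssk1, lay above only 43.2% of the 18287 protein-coding features, and Akap4 lay above 7.26%.

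**Figure D1:**
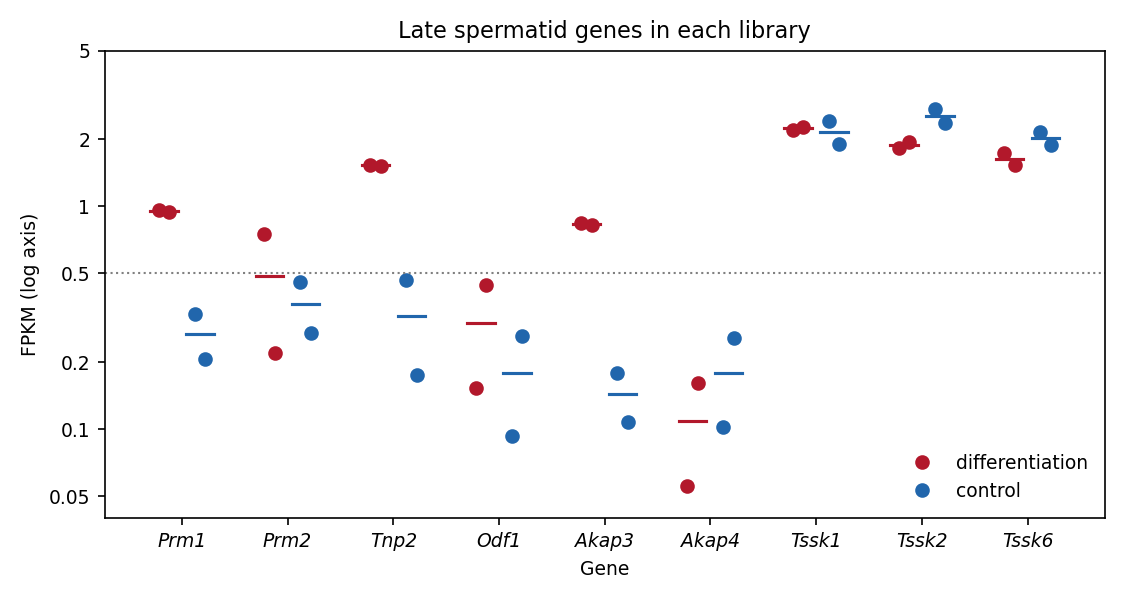
FPKM of 9 late spermatid genes on a log axis, with 1 point per library, the differentiation libraries left and the control libraries right for each gene, a bar at each group mean and a dotted line at 0.5 FPKM. Prm1, Tnp2 and Akap3 have both differentiation points above both control points, while the 3 Tssk genes stay between 1.54 and 2.74 FPKM in all 4 libraries.

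For most features FPKM multiplied by exonic length fell on whole numbers of fragments, at library scales of 17772200 and 20363300 fragments in differentiation and 19461600 and 20650000 in control. The fragments behind each value could thus be read back, for Prm1, Tnp2 and Tssk2 with a fitted length. Features averaging 0.5 FPKM or more over the 4 libraries were tested with limma on log2(FPKM + 1), two-sided, with Benjamini-Hochberg adjustment over the 23138 features tested, and called at an adjusted p under 0.05. Of the 9 genes, 5 reached that mean. Prm1 and Tnp2 reached it only through the differentiation libraries, so that their passing the filter was not independent of a difference. Among the 5, 2 were called higher, where 29.6% of all features tested were, and 0 were called lower, where 27.0% of all features were. At an unadjusted p under 0.05, for which no share of all features is given, limma had 1 lower. limma-voom on the fragments called 1 of the 5 higher and 0 lower, where 31.0% and 31.4% of all features were called. The authors' deposited table had 2 of the 9 genes higher at an adjusted p under 0.05, where 22.0% of all features were. Over all 9 genes the libraries of the groups did not overlap in 3 genes that were higher and 2 that were lower, against 38.5% and 36.1% of all 31600 features, and 34.6% and 34.0% of those between 0.1 and 3 FPKM. These shares were near the background and are no result about the genes as a set.

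Among the genes of chromatin packing, Tnp2 was the highest in differentiation. Its level was 1.54 and 1.52 FPKM in the differentiation libraries, from 15 and 17 fragments, and 0.468 and 0.176 FPKM in the control libraries, from 5 and 2 fragments. Both differentiation libraries lay above both controls. Tnp2 rose by 0.94 on the log2(FPKM + 1) scale (SE 0.14; limma adjusted p = 0.00736). It passed the filter only through its differentiation libraries, so this p-value is not independent of that selection. The call ended without either differentiation library (limma adjusted p = 0.0521 without replicate 1 and 0.0519 without replicate 2), while the log2 fold changes were 0.94 and 0.95. Scaled to depth, the summed fragments of differentiation were 4.81 times those of control, with a 95% interval of 2.08 to 12.9 that covers counting error only. The authors' deposited table gave Tnp2 a log2 fold change of 2.26 with an adjusted p of 0.0316.

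Prm1, which encodes the protamine found in all mammals, had 0.960 and 0.942 FPKM in the differentiation libraries, against 0.329 and 0.207 FPKM in the control libraries. These values rest on 8 and 9 fragments in differentiation and 3 and 2 fragments in control. The groups did not overlap, and Prm1 rose by 0.62 on the log2(FPKM + 1) scale (SE 0.10; limma adjusted p = 0.00920). That standard error takes no account of the fragment counts. Prm1 too passed the filter only through its differentiation libraries, so its p-value is not independent of that selection. limma-voom on the fragments gave a log2 fold change of 1.65 with SE 0.72 and did not call Prm1 (adjusted p = 0.0507), and neither did the authors' deposited table (adjusted p = 0.217). The ratio of summed fragments, differentiation over control, was 3.58, with a counting interval of 1.27 to 12.4.

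Prm2, whose product is cut from a precursor before it packs DNA, did not share the pattern of Prm1 in these libraries. It had 0.755 and 0.220 FPKM in the differentiation libraries, from 12 and 4 fragments, and 0.460 and 0.271 FPKM in the control libraries, from 8 and 5 fragments. The highest and the lowest of the 4 values were both in differentiation, so the groups overlapped. Prm2 stayed under the mean of 0.5 FPKM, and with no filter on low values it was not called (log2 fold change 0.10, SE 0.20; limma adjusted p = 0.714). The ratio of its summed fragments was 1.29, with a counting interval of 0.584 to 2.93 that includes both a decrease and an increase. The difference between the protamine genes was not tested.

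Tnp2, Prm2 and Prm1 stand in a row with Prm3 on the minus strand of chromosome 16, within 17904 bases of GRCm38 as GENCODE M21 annotates them. Tnp2 has its 2 exons between 10787936 and 10788660, Prm2 its 3 between 10791380 and 10796134, and Prm1 its 3 between 10796326 and 10805839. The steps in the Prm1 values corresponded to an exonic length of 469 bases, that of the 2 exons nearest Prm2, and not to the 571 bases that the annotation gives with the distant exon. Prm3, the protamine-related gene between them, had 0.274 and 0.599 FPKM in differentiation and 0.251 and 0.118 FPKM in control, from at most 5 fragments in any library. The other strand over the Prm1 intron carries the pseudogene Gm10343 and the antisense gene Gm46563, and none of their exons overlaps an exon of Prm1. Of 10 listed partner genes of spermatid chromatin 9 had values, Prm3 among them, and 5 were tested. limma called 2 higher and 2 lower, where it called 29.6% and 27.0% of all features. limma-voom called 2 higher and 3 lower, where it called 31.0% and 31.4% of all features. The 4 highest in differentiation were Kdm3a, Cecr2, Jade1 and Rnf8, with log2 fold changes of 1.72, -0.10, -0.95 and 0.45 (limma adjusted p = 8.85e-05, 0.109, 2.19e-04 and 0.0270). Tnp1 lies apart on chromosome 1, inside the antisense gene 1700027A15Rik, which had 0.121 and 0.0704 FPKM in differentiation and 0.0736 and 0.0347 FPKM in control.

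Of the fibrous sheath genes, Akap3 was higher in differentiation and Akap4 was not. Both encode anchors that hold protein kinase A in the sheath of the sperm tail, and AKAP4 is its main structural protein. Akap3 had 0.839 and 0.825 FPKM in the differentiation libraries, from 47 and 53 fragments, and 0.179 and 0.108 FPKM in the control libraries, from 11 and 7 fragments. The groups lay well apart, and the ratio of summed fragments was 5.84, with a counting interval of 3.51 to 10.3. The mean of the 4 libraries, 0.488 FPKM, fell just under the filter, so Akap3 had no test among the 23138 features. With no filter on low values it was called higher (log2 fold change 0.68, SE 0.08; limma adjusted p = 0.00393), where 23.9% of all features were. limma-voom on the fragments with no filter, added after seeing the data, also called it higher (log2 fold change 2.50, SE 0.43; adjusted p = 2.05e-05), where 25.7% of all features were, and the authors' deposited table gave a log2 fold change of 2.54 with an adjusted p of 6.03e-06.

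Akap4, which lies on the X chromosome at 7067519 to 7078609, was the lowest of the 9 genes in differentiation. It had 0.0558 and 0.162 FPKM there, from 3 and 10 fragments, and 0.102 and 0.256 FPKM in the control libraries, from 6 and 16 fragments. The libraries of the groups overlapped. The ratio of summed fragments was 0.622, with a counting interval of 0.288 to 1.29, which does not reach the Akap3 interval of 3.51 to 10.3. With no filter on low values Akap4 was not called (log2 fold change -0.09, SE 0.09; limma adjusted p = 0.495). Akap3, on chromosome 6 at 126853098 to 126874308, and Akap4 are of like exonic length, 3153 and 3027 bases, so that 1 fragment was worth between 0.0154 and 0.0186 FPKM in either gene.

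Odf1, which encodes the main protein of the outer dense fibres, had 0.153 and 0.444 FPKM in the differentiation libraries, against 0.0930 and 0.263 FPKM in the control libraries. These were 3 and 10 fragments in differentiation and 2 and 6 fragments in control, and the groups overlapped. The ratio of summed fragments was 1.71, with a counting interval of 0.657 to 4.76. With no filter on low values it was not called (log2 fold change 0.14, SE 0.14; limma adjusted p = 0.488).

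**Figure D2:**
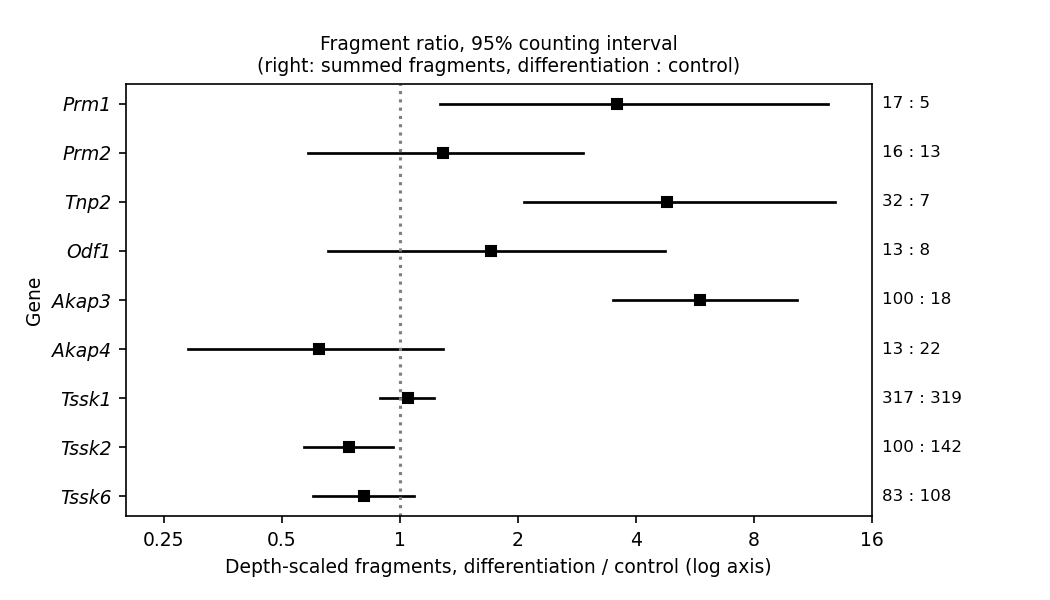
Summed fragments of the 2 differentiation libraries over those of the 2 control libraries, scaled to depth, on a log axis. Squares are ratios, lines are 95% exact binomial intervals that cover counting error only, and the summed fragments stand at the right; the lines of Prm1, Tnp2 and Akap3 lie above 1, that of Tssk2 lies below 1, and those of Prm2, Odf1, Akap4, Tssk1 and Tssk6 cross it.

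Such intervals are too narrow where libraries vary beyond counting. Among features with 2 to 9 summed fragments, libraries of a group varied by 1.405 times the Poisson variance in differentiation and 1.46 times in control, and among those with 10 to 39 by 1.526 times in differentiation and 1.575 times in control. With 40 to 199 summed fragments, as for Akap3 in differentiation and for Tssk2 and Tssk6 in both groups, the ratio was 1.577 in differentiation and 1.691 in control, so the Tssk2 interval of 0.568 to 0.963 is also too narrow. The depth also sets how little could be seen. A level of 3 fragments corresponded to between 0.310 and 0.360 FPKM for Prm1 and to between 0.0461 and 0.0535 FPKM for Akap3.

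The kinase genes stood at the top of the order in both groups and were not called different. Tssk1 had 2.21 and 2.28 FPKM in the differentiation libraries and 2.42 and 1.90 FPKM in the control libraries, from 145 to 174 fragments a library. The differentiation values lay between the controls, and the log2 fold change of 0.04 had an interval of -0.28 to 0.37 (limma adjusted p = 0.774); it turned negative under quantile normalization, median centring and without control replicate 2. Tssk2 had 1.83 and 1.95 FPKM in the differentiation libraries and 2.74 and 2.37 FPKM in the control libraries. Both differentiation libraries lay below both controls, with a log2 fold change of -0.30 (interval -0.58 to -0.02; limma adjusted p = 0.0649). It was called lower after quantile normalization, median centring and with no trend in the prior variance (limma adjusted p = 0.0340, 0.0311 and 0.0421), and not with limma-voom on the fragments (adjusted p = 0.0910). TSSK1 and TSSK2 are paralogous kinases that are needed together for male fertility in the mouse, and the sources used here do not say how reads from like sequences were divided.

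Tssk6, a kinase required in the mouse for the change from histones to protamines, had 1.73 and 1.54 FPKM in the differentiation libraries and 2.16 and 1.89 FPKM in the control libraries. Here too both differentiation libraries lay below both controls, but the log2 fold change of -0.20 had an interval of -0.48 to 0.09 (limma adjusted p = 0.181). The relatives of these kinases were also low. Tssk5, Tssk4 and Tssk3 had means of 1.02, 0.798 and 0.450 FPKM in differentiation and 0.949, 0.580 and 0.393 FPKM in control. Tsks, a substrate of the kinases, had 0.927 FPKM in differentiation and 0.416 FPKM in control. Of the 4 relatives 3 were tested. limma called 0 of them, with 1 higher and 0 lower at an unadjusted p under 0.05. limma-voom on the fragments called 1 higher and 0 lower. The shares that follow are of adjusted calls and do not apply to the unadjusted counts. Among all features limma called 29.6% higher and 27.0% lower, and limma-voom 31.0% and 31.4%.

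The 3 kinase genes are also those made of 1 exon, and they lie close to or across genes of the other strand. Tssk1 occupies 17894223 to 17897922 of chromosome 16 on the plus strand, all 3700 bases of it inside Dgcr2 on the minus strand, with 63 bases in a Dgcr2 exon and the rest in introns. Dgcr2 stood between 10.6 and 11.2 FPKM in all 4 libraries, and its groups overlapped. Tssk2, at 17898637 to 17900024, begins 75 bases past the end of Dgcr2 and overlaps no annotated gene. Tssk6, at 69902184 to 69903518 of chromosome 8 on the plus strand, shares 375 of its 1335 bases with an exon of Ndufa13, a gene of mitochondrial complex I, and 15 bases with an exon of Yjefn3, both on the minus strand. Ndufa13 had 6.39 and 7.69 FPKM in differentiation and 8.75 and 8.48 FPKM in control. Yjefn3 had 2.37 and 1.67 FPKM in differentiation and 5.14 and 2.86 FPKM in control. For each, as for Tssk6, both differentiation libraries lay below both controls. The sources used here do not say whether strand was used in counting, and without it the reads of Tssk1 or Tssk6 and of the gene across from it cannot be told apart. The part of these genes in the kinase values was not tested. Akap3, Akap4, Odf1, Tnp2 and Prm2 overlap no other annotated gene.

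**Figure D3:**
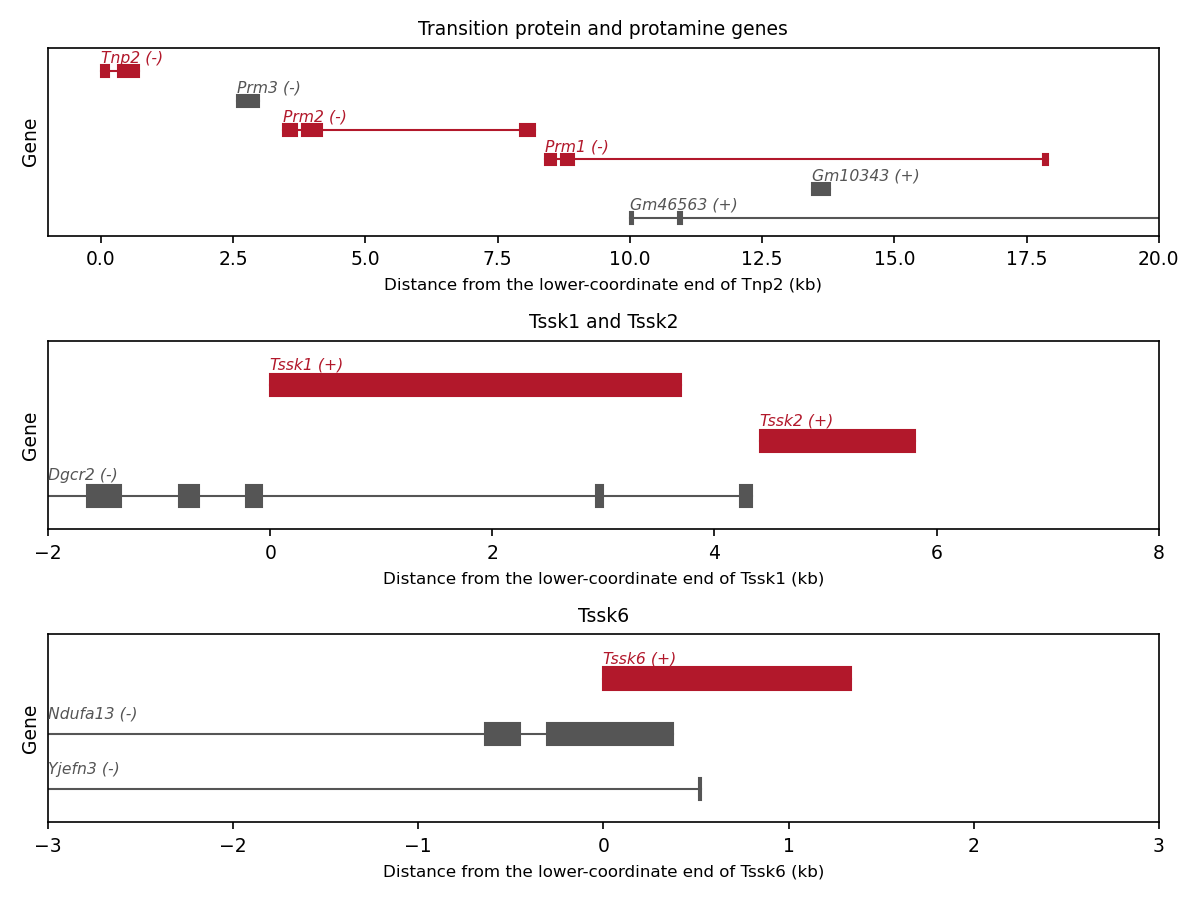
GENCODE M21 gene models at 3 loci, drawn to scale in kb from the end with the lower coordinate of Tnp2, Tssk1 and Tssk6, with boxes for exons, lines for introns and the strand in brackets; late spermatid genes are red. Tssk1 lies wholly inside Dgcr2, and 375 bases of Tssk6 lie in an exon of Ndufa13.

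The order of the levels set the kinase genes apart from the rest in control, where Tssk2, Tssk1 and Tssk6 had means of 2.56, 2.16 and 2.02 FPKM with ranges that overlapped from one to the next, and the other 6 genes, from Prm2 at 0.365 to Akap3 at 0.143 FPKM, each overlapped their neighbour in the order. In differentiation Tssk1, Tssk2, Tssk6, Tnp2, Prm1 and Akap3 followed each other from 2.24 to 0.832 FPKM without overlap between neighbours, while Prm2, Odf1 and Akap4 overlapped. With 2 libraries a group such gaps carry no test. Over the 4 libraries the protein-coding genes closest to Tssk1, by Euclidean distance of log2(FPKM + 1), were Hacd4, Blvrb and C1ra, at 0.0930, 0.108 and 0.113, and 59 genes lay within 0.25. Those closest to Tnp2 were Foxh1, Tmem217 and Tpbgl, at 0.0956, 0.148 and 0.159, and 14 genes lay within 0.25.

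The late spermatid genes stayed low in libraries in which genes of earlier steps were high. The related lists were chosen with earlier results of these data known, so their counts are not independent of these data. Of 16 genes of pachytene spermatocytes, 15 were called higher and 0 lower with limma, and limma-voom gave the same counts, with a median log2 fold change of 3.97 over the list, against 0.01 over all features tested. Over all features limma called 29.6% higher and 27.0% lower, and limma-voom 31.0% and 31.4%. The summed level of the 16 pachytene genes was 1432 and 1459 FPKM in the differentiation libraries and 104 and 106 FPKM in control. Hspa2, a heat shock protein of spermatocytes, had 159 FPKM in differentiation and 9.47 FPKM in control. Hist1h1t, the testis linker histone of spermatocytes, had 316 ± 13.7 FPKM in differentiation and 18.1 ± 0.554 FPKM in control (SD, n = 2 each), so the mRNA of a histone that precedes the protamines was abundant where Prm1 had 0.951 ± 0.0123 FPKM in differentiation and 0.268 ± 0.0864 FPKM in control (SD, n = 2 each). In bulk RNA fewer cells of a type and less RNA per cell cannot be told apart. Markers of somatic testis cells differed in direction between and within lists. The summed level of 8 fibroblast and peritubular markers was 67.2 to 72.7 FPKM in differentiation and 210 to 212 FPKM in control, and that of 6 macrophage markers 14.9 to 15.7 FPKM in differentiation and 50.8 to 53.6 FPKM in control. The 5 Leydig cell markers summed to 20.9 to 21.3 FPKM in differentiation and 37.1 to 38.2 FPKM in control, and the 5 endothelial markers to 6.86 to 7.03 FPKM in differentiation and 12.4 to 12.5 FPKM in control. Among the Leydig cell markers Star was called higher, at 17.2 FPKM in differentiation and 9.98 FPKM in control, and Cyp11a1 and Hsd3b1 lower, at 2.45 and 0.681 FPKM in differentiation and 16.6 and 9.83 FPKM in control. The 9 Sertoli cell markers summed to 126 to 136 FPKM in differentiation and 123 to 124 FPKM in control. Of the 8 tested, limma called 3 higher (Cldn11, Clu and Wt1) and 3 lower, where it called 29.6% and 27.0% of all features. The 15 markers of undifferentiated spermatogonia, the labelled cell type, summed to 120 to 123 FPKM in differentiation and 315 to 318 FPKM in control, with 12 called lower and 1 higher. Uchl1 gave the largest part of that sum, at 60.7 FPKM in differentiation and 138 FPKM in control, and the gene called higher was Id4, a marker of spermatogonial stem cells, at 12.4 FPKM in differentiation and 2.95 FPKM in control. Of 10 listed Sertoli cell markers 9 had values, and of 6 listed Leydig cell markers 5 had. No feature with values was at 0 in every library, so having values says little about a marker. The part of these markers in the values of the late spermatid genes was not tested.

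Regulators of the late spermatid genes were mostly present. Of 11 such genes 10 were tested, 9 were called higher and 0 lower with limma, and limma-voom gave the same counts, with a median log2 fold change of 2.42. Among all features limma called 29.6% higher and 27.0% lower, and limma-voom 31.0% and 31.4%. Rfx2, Tcfl5 and Brdt, which act in transcription and chromatin of spermatocytes and spermatids, had log2 fold changes of 3.34, 1.47 and 2.46. Taf7l, a testis subunit of TFIID, was high in both groups, with 82.3 FPKM in differentiation and 84.4 FPKM in control. Crem, named after its value was seen, had 10.7 and 10.3 FPKM in the differentiation libraries and 2.14 and 2.28 FPKM in the control libraries, and rose by 1.85 on the log2(FPKM + 1) scale (SE 0.06; limma adjusted p = 1.94e-04). Fhl5, the coactivator of CREM, also named after its value was seen, had 0.432 and 0.168 FPKM in differentiation and 0.570 and 0.662 FPKM in control, from at most 16 fragments, and was not tested. Kdm3a, a histone demethylase known to act at the Prm1 and Tnp1 promoters in mouse spermatids, had 55.5 and 57.0 FPKM in differentiation and 16.2 and 16.5 FPKM in control, and rose by 1.72 (SE 0.03; limma adjusted p = 8.85e-05).

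Genes for proteins that bind or store spermatid mRNAs had a median level of 55.9 FPKM in differentiation and 11.7 FPKM in control. All 8 genes of this list were tested, and 7 were called higher and 0 lower with limma and 8 higher and 0 lower with limma-voom, with a median log2 fold change of 1.33. Over all features limma called 29.6% higher and 27.0% lower, and limma-voom 31.0% and 31.4%. Ybx2 and Ybx3, whose products bind and repress stored mRNAs such as that of Prm1, had 167 ± 1.91 and 68.1 ± 0.226 FPKM in differentiation and 7.73 ± 0.106 and 23.7 ± 1.74 FPKM in control (SD, n = 2 each). Hnrnpk, an RNA-binding protein between them in level, had 93.3 FPKM in differentiation and 85.6 FPKM in control. Its log2 fold change was only 0.12 (SE 0.02; limma adjusted p = 0.0166). Piwil1, a piRNA-binding protein, had 62.7 FPKM in differentiation and 1.40 FPKM in control. Ybx2 and Piwil1 are also on the pachytene list, so the counts of these lists are not separate.

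Among genes listed for the tail, related genes lay far apart in level. Odf4, named for the outer dense fibres, had 29.6 and 27.4 FPKM in differentiation and 0.353 and 0.332 FPKM in control. Odf2 had 13.8 and 14.3 FPKM in differentiation and 3.28 and 3.71 FPKM in control. Odf1, in contrast, did not exceed 0.444 FPKM in any library. Of the 8 listed outer dense fibre partners 7 were called higher and 0 lower with limma, and 8 higher and 0 lower with limma-voom. With Odf1 not called, these counts say little about the fibres themselves. Spag5 and Oaz3, the other two of the 4 highest, had 22.4 and 11.1 FPKM in differentiation and 9.55 and 5.12 FPKM in control. Of 10 listed fibrous sheath partners 7 had values, and 4 were called higher and 0 lower by both tools. Over all features limma called 29.6% higher and 27.0% lower, and limma-voom 31.0% and 31.4%. Among the fibrous sheath partners Gstm5, a glutathione transferase of the sheath, Ropn1l, a sheath protein of the tail, and Spa17 had log2 fold changes of 2.28, 3.67 and 1.75 with limma. Ropn1l had 40.5 ± 0.720 FPKM in differentiation and 2.28 ± 0.420 FPKM in control (SD, n = 2 each), in libraries in which Akap4 did not exceed 0.256 FPKM. A further list of 6 genes, drawn up for the mitochondrial sheath, had values for 4. Of these 3 were tested, and both tools called all 3 higher. Gpx4, a structural selenoprotein of that sheath, had 51.8 FPKM in differentiation and 33.8 FPKM in control. Tekt4, Tekt5 and Spem1, which are not given here as proteins of that sheath, had 2.06, 1.34 and 0.186 FPKM in differentiation and 0.196, 0.165 and 0.168 FPKM in control. Smcp and Spata19 had no values, so the counts say little about the sheath itself. Differences between genes in their change were not tested.

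Among genes of the sperm head, Dpy19l2, which anchors the acrosome to the nucleus, and Actl9, an actin-like protein, had means of 11.7 and 7.17 FPKM in differentiation and 0.347 and 0.214 FPKM in control. The actin-like genes Actl7b and Actl7a had 3.65 and 1.02 FPKM in differentiation and 0.637 and 1.35 FPKM in control. Of 12 listed head genes 7 had values and 5 were tested, and 3 were called higher and 0 lower by both tools. Of 18 listed genes of round spermatids 14 had values and 8 were tested. limma called 5 higher and 0 lower, with 1 lower at an unadjusted p under 0.05, while limma-voom called 5 higher and 1 lower. Among all features limma called 29.6% higher and 27.0% lower, and limma-voom 31.0% and 31.4%. At an unadjusted p under 0.05 neither tool had a lower gene on the lists of pachytene, regulator, mRNA storage, outer dense fibre, fibrous sheath and head genes. The shares given are of adjusted calls and do not apply to counts at an unadjusted p. Of the round spermatid list only Dkkl1, an acrosomal protein, reached 5 FPKM in differentiation, at 90.4 FPKM, against 1.29 FPKM in control. Sun5 and Izumo3 followed, at 2.42 and 1.66 FPKM in differentiation and 0.959 and 0.0574 FPKM in control, and Spaca4, next in level, was not called (log2 fold change 0.15; limma adjusted p = 0.402). The 14 round spermatid genes with values had a median level of 0.606 FPKM in differentiation and 0.292 FPKM in control, and the 9 late spermatid genes 0.951 FPKM in differentiation and 0.322 FPKM in control. The pachytene list had a median of 45.5 FPKM in differentiation and 1.15 FPKM in control.

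**Figure D4:**
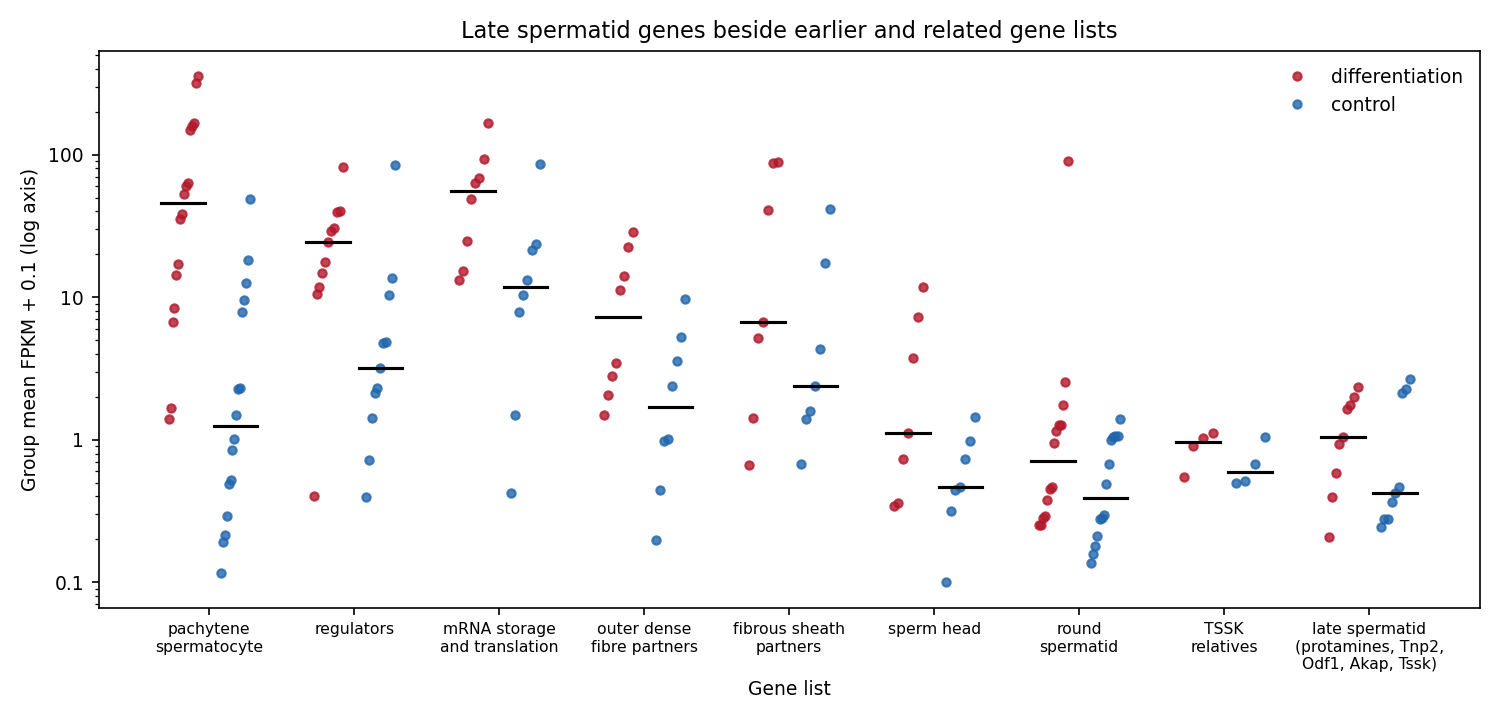
Group mean FPKM + 0.1 of each gene with values on a log axis, for 8 related gene lists and the 9 late spermatid genes, with differentiation left, control right and a bar at each median. The pachytene list has a median of 45.5 FPKM in differentiation and 1.15 FPKM in control, while the late spermatid genes all stay under 3 FPKM in both groups.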

How the data were processed

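Per the labels' protocols, RNA was isolated with TRIzol and ribosomal RNA was removed. The submitters' processing notes name HISAT2 and GRCm38, with no annotation, counter or use of strand. The authors deposited FPKM per feature and library. They also deposited a log2 fold change, a p-value and an adjusted p per feature from a test that is not named. The genes and lists were chosen with earlier results of these data known; up to 4 genes of each related list, those highest in differentiation, were named, except 1 that is not reported here; marker lists are given mainly as sums.

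limma 3.58.1 (R 4.3.3) was fitted to log2(FPKM + 1) with an intensity trend and group as the only term. The fit had 2 residual degrees of freedom, to which the prior added 2.14. It was also run on simulated data. There only features with more fragments than Prm1, Prm2, Tnp2, Odf1 and Akap4 had here were changed. That run therefore says nothing about changes at their depth. Fold changes on this scale understate those of low genes. An exact permutation test of 2 against 2 libraries cannot go below p = 0.333, so none was used. FPKM was turned into fragments with merged exon lengths of GENCODE M21, which matched 31536 features: between 17772200 and 20650000 fragments a library gave whole numbers, within 0.05, for 96.2% of features under 300 fragments. For 780 features another length was fitted that gave whole numbers in all 4 libraries. Among them were Prm1 (469 for 571 bases), Tnp2 (549 for 554 bases) and Tssk2 (1387 for 1388 bases). Poisson and binomial intervals (95%) cover counting error only. Alternatives were the pseudocount, filter, scaling, prior variance, a replicate block, leaving out libraries, and limma-voom on fragments. Python 3.11.15, scipy 1.17.1 and matplotlib 3.10.9 were used.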

Additional observations from a re-analysis of the deposited data

How the results depend on the processing

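Counts of all features called higher or lower stayed within 1.5 times of 6848 and 6246 under every alternative run. The number of late spermatid genes called higher, 2, became 0 at a mean of at least 2 FPKM, where neither Prm1 nor Tnp2 was tested, and 1 with limma-voom on fragments. Leaving out each library gave 1 to 2 called higher and 0 called lower. The number called lower, 0, became 1 (Tssk2) with quantile normalization, 1 with median centring and 1 with no trend. The log2 fold change of Tssk1, 0.04, was -0.04 under quantile normalization and -0.05 with median centring, and lay between -0.07 and 0.16 when each library was left out, the lowest without control replicate 2. limma-voom with no filter gave Prm1 1.66 (adjusted p = 0.0789). The replicate block left 2 called higher and 0 lower. Deviations of same-numbered libraries had a correlation of -0.00565 across 19473 features, so no shared deviation was seen. That value cannot tell whether same-numbered libraries were made together, which the labels do not say. The causes were not tested. Low fragment counts limit Prm1, Prm2, Tnp2, Odf1 and Akap4.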

Other observations

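A few other genes of spermatid chromatin and head, named after their values were seen, were read in differentiation and hardly or not in control. H2al2a, a histone variant that acts with transition proteins, had 6 and 6 fragments in the differentiation libraries and 0 and 0 in the control libraries. Capza3, a capping protein subunit of the sperm head, had 8 and 7 fragments in differentiation and 0 and 0 in control, and Hils1, a spermatid linker histone, had 9 and 4 in differentiation and 1 and 1 in control. H1fnt, the other spermatid linker histone listed, went the other way, with 2 and 2 fragments in differentiation and 6 and 6 in control. On the head list Ccin, with 9 and 9 fragments in differentiation and 19 and 9 in control, Actl7a and Spata46 had overlapping groups. No share of all features with such a split is given. H2al2a, Capza3, Hils1, H1fnt and Ccin were under the mean needed for testing.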
